A study of Solanum lycopersicum with 8 samples.

Results

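In tomato type VI trichome glands, 143 genes had a level in trichome replicate 4 that stood well apart from those in the other 3 trichome libraries. Levels are in CPM, a gene's read count scaled to the library's total over all genes. The genes were chosen by these trichome levels alone. A gene was taken where its mean over the 4 trichome libraries was at least 10 and under 500 CPM, and where its CPM in trichome replicate 4 was at least 3 times the highest, or at most 1/3 of the lowest, of replicates 1, 2 and 3. Of 34725 genes counted, 10014 had a mean in that range, and 143 of these were set apart (1.43%): 4 were higher in replicate 4 (0.0399%) and 139 were lower (1.39%). The differences of replicate 4 from the other trichome libraries are therefore given as a description and without a test. The leaf levels were not used in the choice.

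The study set isolated type VI gland cells beside leaves whose hairs had been scraped off, in Solanum lycopersicum cultivar M82, with RNA from 4 collections and 1 library of each tissue per collection. The labels name the af mutant (anthocyanin free) as the genotype of the leaf libraries, and complemented line #4, a single line, as that of the trichome libraries. The protocols describe both tissues as taken from the same plants, which goes against those labels, so tissue and labelled genotype cannot be told apart. Both groups came from plants aged 5 weeks, kept at 28 °C under 250 µE.

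Type VI trichomes are leaf hairs whose secretory gland cells make and store volatile terpenes, and hairs of other kinds on the same leaf make acylsugars. Leaf and hair cells enlarge when expansins, endoglucanases and xyloglucan endotransglucosylases (XTHs) loosen the cell wall. The last step of ethylene synthesis is made by ACC oxidases, and ethylene, jasmonate and WRKY transcription factors act in responses to wounding and pathogens. The files carry gene IDs without names or product descriptions, so 11 of the 143 genes are named here and the others keep their IDs.

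Gene totals lay between 24596280 and 26514416 counts in the trichome libraries and between 19209754 and 34941715 in the leaf libraries. Trichome replicate 4, at 26236865 counts, was within the range of the others in depth. It had counts for 20400 genes, where replicates 1 to 3 had 22154 to 22325, and reads that could not be placed uniquely took 6.70% of its lines against 4.64% to 5.08%. Its 10 most abundant genes took 16.9% of the gene counts, against 10.7% to 13.8%. The summed CPM of 11 terpene genes, listed as markers of the gland cells, was 20953 in replicate 4 and 14198 to 18359 in the others. Of these 11 genes, 6 had their highest trichome value in replicate 4 and 1 its lowest. HDS (5381 CPM against 2846 to 3455) and dxs2 (2101 against 1301 to 1464) were highest there. In leaf HDS had 499.6 to 603.0 CPM and dxs2 120.7 to 249.8 CPM, so these genes are not particular to gland cells. PHS1 (1617 CPM against 1272 to 2273) and CPT1 (3362 against 2298 to 3978) lay within the range of the others. The sum of 8 photosynthesis genes, 1721 CPM, lay within the 1572 to 1740 CPM of the other trichome libraries and far under the 30787 to 34028 CPM of leaf. Sums for 3 acylsugar genes (81.4 CPM against 90.0 to 126.9) and 3 cuticle genes (287.3 against 359.6 to 622.9) were the lowest of the trichome libraries. The acylsugar genes differed: ASAT3 and ASAT1 were lowest in replicate 4, and the ID listed as IPMS3 was highest there, at 38.5 CPM. The sum for 4 phloem genes was the highest (1235 against 606.6 to 1024). Of these, the sucrose synthase gene sus3, also active elsewhere in the plant, gave nearly the whole. All these sums are on gene totals alone, so their order could change with another scaling. The part of these differences in the results that follow was not tested, and in such bulk samples fewer cells of a type and less RNA per cell cannot be told apart.

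The set was almost all in the lower direction. Over the 139 lower genes, replicate 4 held 5.87% to 31.04% of the mean of replicates 1 to 3, with a median of 18.8%. Together these genes took 0.741% of the gene counts in replicates 1 to 3 and 0.137% in replicate 4. The lowest of the other 3 libraries was at least 4 times replicate 4 for 55 genes, at least 5 times for 30 and at least 8 times for 6. Each rested on 31 to 2783 counts in replicate 4 (median 150), so none was near the floor of 3 counts, which stands for 0.113 to 0.122 CPM in these libraries. Among replicates 1 to 3, the highest level was in replicate 1 for 71 genes, in replicate 3 for 56 and in replicate 2 for 12. The genes lay on all chromosomes.

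The same rule applied to each of the other libraries gave fewer genes in trichome. It gave 12 lower and no higher genes in trichome replicate 1, 1 of each in replicate 2, and 8 higher and no lower genes in replicate 3. Leaf replicate 4, from the same collection, had 91 higher and 89 lower genes, and the other leaf libraries had 6 to 55 in both directions together. Of the 139 genes lower in trichome replicate 4, 3 (2.16%) were also in the lower set of leaf replicate 4, of which they made up 3.37%; they were Solyc01g086820, Solyc08g067940 and Solyc11g066580. A single gene, Solyc03g096780, was in the higher set of both, and Solyc06g019170 was lower in trichome replicate 4 and higher in leaf replicate 4.

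**Figure D1:**
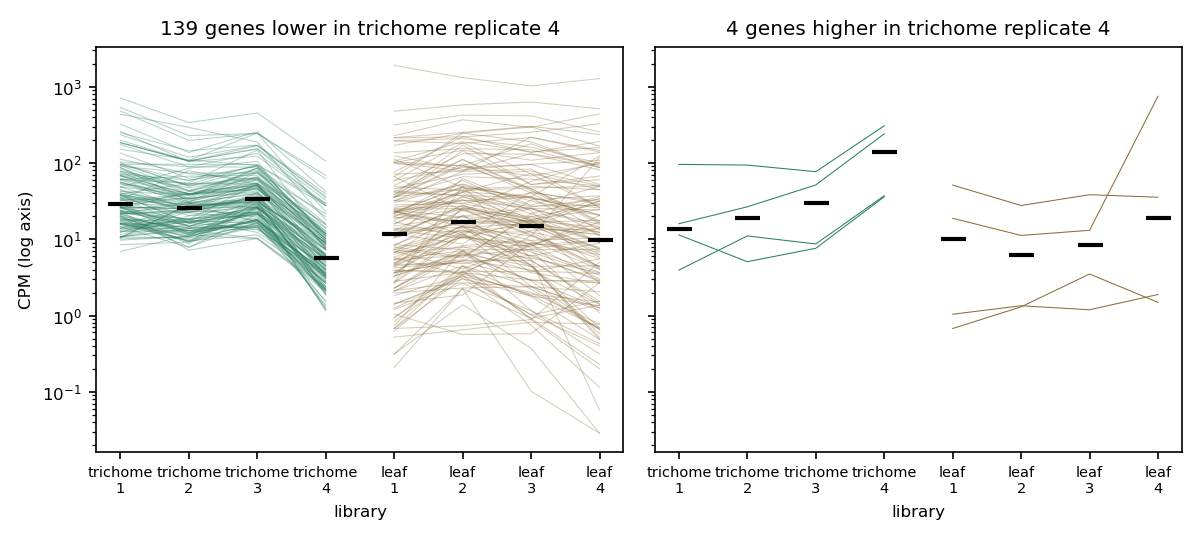
CPM of the 143 genes in each library on a log axis, with 1 line per gene within each tissue and a black bar at the median over genes; the 139 lower genes are on the left and the 4 higher genes on the right. The drop at trichome replicate 4 was how the genes were chosen, while the leaf libraries, which the choice did not use, spread over more than 3 powers of 10 and show no common drop in replicate 4.

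Scaling changed the size of the set and the balance of its directions. On gene totals, the median gene of the 10014 was lower in replicate 4 than in the mean of replicates 1 to 3 (log2 ratio -0.23, with 0.1 CPM added to each value), and 5713 genes (57.1%) had their lowest trichome value there. TMM factors, which scale libraries on the assumption that most genes keep their level, were 0.825 for replicate 4 and 1.00 to 1.12 for the others. With them that median was 0.14, and the rule gave 67 lower genes, all of them among the 139, and 13 higher genes. All of the 139 remained lowest in replicate 4 with TMM, by a ratio of at least 2.29. Of the 11 named genes, 6 still met the rule (EXPA4, EXP12, CEL8, ACO6, WRKY41 and NAP1), while JAZ2, CZFP1, CHI3, IPMS2 and GH3.2 had ratios of 2.62 to 2.92. The 13 included the 4 higher genes, and 9 that joined them, such as Solyc01g058490 (22.9, 39.6 and 66.6 CPM in replicates 1 to 3, and 176.5 in replicate 4) and Solyc02g080640 (70.32, 49.9 and 43.2 CPM, and 168.6); both were chosen for mention after their values were seen. Solyc02g080640 also had its highest leaf value in leaf replicate 4, at 1836 CPM against 132.1 to 638.1 CPM.

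At the threshold itself there was no gap. Just inside it for the lower genes were Solyc01g108500, Solyc03g019890 and Solyc09g082580, whose lowest other library was 3.01, 3.02 and 3.03 times replicate 4. Just outside were Solyc03g077910, Solyc08g077550 and Solyc12g100190, with 2.99, 2.99 and 2.98 times. For the higher genes, Solyc03g096780 (3.16), Solyc10g008660 (3.203) and Solyc00g019730 (3.36) were inside, and Solyc00g019740 (2.94), Solyc00g011150 (2.91) and Solyc11g056320 (2.71) outside. The upper limit of 500 CPM kept out 5 genes that met the ratio in the lower direction. The most abundant, Solyc09g072750, had 14841, 5499 and 6314 CPM in replicates 1 to 3 and 1655 CPM in replicate 4. The other 4 were Solyc01g088300, Solyc03g020040, Solyc08g080590 and Solyc09g092760.

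None of the 4 higher genes could be given a name. Solyc00g068980, a gene not placed on a chromosome, had 16.0, 26.6 and 51.5 CPM in trichome replicates 1 to 3 and 241.3 CPM in replicate 4. Its leaf libraries had 0.677, 1.30, 3.51 and 1.49 CPM. The 2 tissues did not overlap, and replicate 4 held 769.1% of the mean of the other trichome libraries. Solyc00g019730, also unplaced, went from 3.94, 11.1 and 8.67 CPM to 37.2 CPM, with 1.04 to 1.89 CPM in leaf; its neighbour in the ID order, Solyc00g019740, followed the same values just outside the threshold. Solyc10g008660 had 95.9, 93.9 and 76.9 CPM in replicates 1 to 3, 307.3 CPM in replicate 4 and 27.7 to 51.3 CPM in leaf. These 3 were higher in trichome than in leaf in edgeR's quasi-likelihood test with Benjamini-Hochberg adjustment over 20409 genes, by 5.96 ± 1.09 (log2, SE; adjusted p = 0.000887), 3.79 ± 0.76 (adjusted p = 0.00162) and 2.22 ± 0.55 (adjusted p = 0.0053), and without collection 4 by 4.24, 2.93 and 1.35.

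Solyc03g096780 was the one gene of the 143 that stood apart upwards in both tissues of collection 4. Trichome replicates 1 to 3 had 11.4, 5.08 and 7.62 CPM and replicate 4 had 36.1 CPM. Leaf replicates 1 to 3 had 18.8, 11.2 and 13.1 CPM, and leaf replicate 4 had 751.7 CPM, far above every other library of either tissue. Its difference between tissues was -3.57 ± 1.57 (log2, SE; edgeR adjusted p = 0.0651) and turned to 0.45 without leaf replicate 4. It passed the threshold with library size alone (adjusted p = 0.0452) and without leaf replicate 2 (0.0392), leaf replicate 3 (0.0448) or trichome replicate 4 (0.0487).

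Among the 139 lower genes, the 8 with the largest ratios had no name. Solyc03g115920 had 25.6, 26.8 and 29.5 CPM in trichome replicates 1 to 3 and 2.21 CPM in replicate 4, a ratio of 11.6 to the lowest of the others. In leaf it had 11.1, 28.2, 14.2 and 11.6 CPM, so that replicate 4 fell below every leaf library while the other trichome libraries lay at the upper end of leaf. Solyc12g088390 had 13.9, 18.8 and 20.4 CPM and 1.30 CPM in replicate 4, again below every leaf library (2.66 to 14.5 CPM). Solyc09g072770 had the widest span of these 8, with 436.0, 292.7 and 188.4 CPM in replicates 1 to 3, 17.9 CPM in replicate 4 and 0.208 to 2.25 CPM in leaf. It kept to the trichome side even in replicate 4, which was above every leaf library (log2 7.76 ± 1.02, SE; edgeR adjusted p = 0.000112). Solyc04g025530 (14.4 to 16.0 CPM, then 1.56) and Solyc05g009340 (18.3 to 22.3 CPM, then 2.21) were likewise more abundant in trichome than in leaf. Solyc07g065320, Solyc09g011560 and Solyc05g052040 went the other way between tissues: they had 10.4 to 28.9 CPM in replicates 1 to 3, 1.18 to 1.49 CPM in replicate 4, and leaf levels of 45.9 to 78.3, 35.8 to 66.1 and 75.8 to 222.8 CPM. The call for Solyc09g011560 (log2 -1.70, adjusted p = 0.0351) was lost in 5 of the 8 fits that left out a single library.

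The cell-wall group held 3 named members. EXPA4 (Solyc09g010860), an alpha-expansin, had 71.0, 51.8 and 65.1 CPM in trichome replicates 1 to 3 and 7.81 CPM in replicate 4, and its leaf libraries had 49.0, 43.5, 47.0 and 49.9 CPM. Replicate 4 was thus 6.63 times lower than the nearest trichome library for a gene whose leaf libraries kept within a narrow band. EXP12 (Solyc05g007830), another expansin, had 56.0, 34.1 and 43.0 CPM, then 5.98 CPM, with 215.2, 252.1, 303.0 and 236.4 CPM in leaf. CEL8 (Solyc08g082250), an endo-beta-1,4-glucanase that cuts glucan chains of the wall, had 95.3, 58.8 and 91.7 CPM, then 11.2 CPM, with 136.9, 153.7, 149.8 and 87.0 CPM in leaf. For all 3 the trichome replicate 4 value was below every other library of either tissue. EXP12 was lower in trichome than in leaf (log2 -2.71 ± 0.50, SE; edgeR adjusted p = 0.000892). For CEL8 the difference was -0.88 ± 0.47 (adjusted p = 0.12), which passed the threshold without collection 4 (-0.66, adjusted p = 0.0109) and with the collection as a block (-1.14, adjusted p = 0.032), and for EXPA4 it was 0.18 ± 0.48 (adjusted p = 0.754) with all libraries and 0.60 (adjusted p = 0.0113) without collection 4.

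Other genes of that family are given by their counts. The list of expansins, XTHs and endoglucanases, drawn up after values had been seen, had 14 named genes, of which 9 were in the range of trichome levels. The 3 members among these 9 were chosen for their low value and are left out here. Of the other 6, 5 had their lowest trichome value in replicate 4 on gene totals and 5 with TMM. Over all 10014 genes in the range, 5713 (57.1%) did so on gene totals and 2715 with TMM. The median log2 ratio of replicate 4 to the mean of replicates 1 to 3 was -1.21 for the 6 genes and -0.23 for all in the range. With TMM the medians were -0.84 and 0.14. Because the list was drawn up with values known, these figures describe the 6 genes and are no test of the family. Examples below the 3-fold threshold were EXP5 (40.7, 25.9 and 35.3 CPM, then 9.38), exp11 (50.1, 30.1 and 42.0 CPM, then 13.2) and XTH5, a xyloglucan endotransglucosylase (91.6, 68.3 and 69.4 CPM, then 31.9). The exception was the expansin exp9, whose 42.8 CPM in replicate 4 was close to the 42.6 CPM of replicate 3. In leaf replicate 4 none of the 13 listed genes that were tested, the 3 members included, was called against leaf replicates 1 to 3. Over all 21232 tested genes 0.221% were called higher and 0.0% lower, so the lack of a call says little. The median log2 difference there was -0.05 for the 13 and -0.01 for all tested genes.

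**Figure D2:**
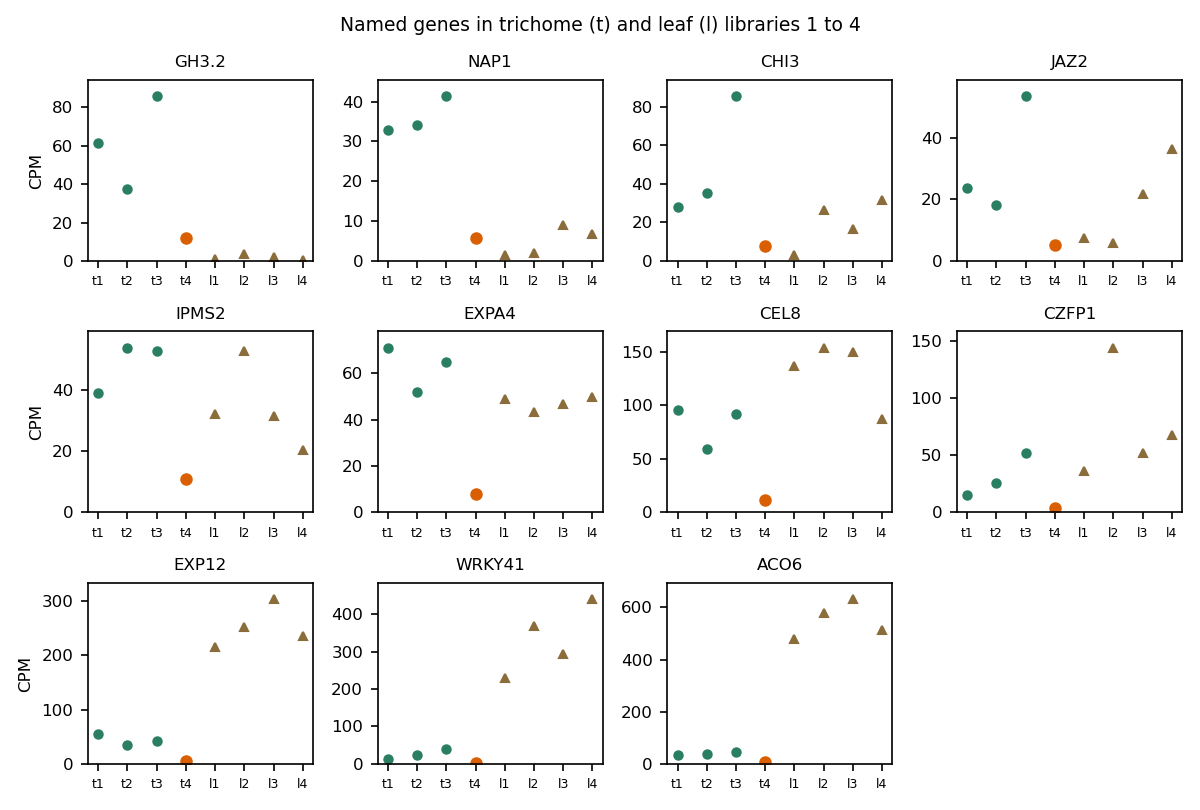
CPM on a linear axis from 0 for the 11 named genes, 1 panel each, in trichome libraries t1 to t4 (circles, t4 in orange) and leaf libraries l1 to l4 (triangles), ordered from those highest in trichome relative to leaf to those lowest. In EXPA4, CEL8, EXP12, WRKY41, ACO6, CZFP1, IPMS2 and JAZ2 the t4 point lies under every leaf point, and in GH3.2 it lies above them all.

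ACO6 (Solyc02g036350), an ACC oxidase, was a member with its higher levels in leaf. It had 32.5, 38.9 and 46.9 CPM in trichome replicates 1 to 3 and 5.72 CPM in replicate 4, and 476.7 to 630.1 CPM in leaf. Every leaf library was above every trichome library (log2 -3.995 ± 0.51, SE; edgeR adjusted p = 9.25e-05).

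Transcription factors were represented by WRKY41, NAP1 and CZFP1. WRKY41 (Solyc01g095630) had 12.3, 24.7 and 38.7 CPM in replicates 1 to 3 and 2.21 CPM in replicate 4, which was 8.76% of their mean and the smallest share among the 11 genes with a name. Its leaf libraries, at 228.0, 368.5, 293.1 and 439.0 CPM, were all far above trichome (log2 -3.97 ± 0.70, SE; edgeR adjusted p = 0.000692), and leaf replicate 4 was the highest of them. Of 6 WRKY genes in the range, a list also drawn up after values had been seen, WRKY41 had been chosen for its low value. Of the other 5, 3 had their lowest trichome value in replicate 4 on both scalings. Over all 10014 genes in the range, 5713 (57.1%) did so on gene totals and 2715 with TMM, so the count says little. The 3 were WRKY31 (10.8, 35.8 and 60.2 CPM, then 7.20), WRKY40 (12.7, 25.2 and 46.5 CPM, then 7.85) and WRKY3 (8.49, 14.3 and 25.9 CPM, then 3.77). The other two, WRKY6 (148.4 to 220.9 CPM, then 257.9) and WRKY75 (82.6 to 93.1 CPM, then 92.5), were not low there. WRKY41, WRKY31, WRKY40 and WRKY3 had higher levels in leaf than in trichome, and WRKY6 and WRKY75 had higher levels in trichome, all called by edgeR.

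NAP1 (Solyc05g007770), a NAC factor of the group linked to leaf senescence, had 32.9, 34.2 and 41.3 CPM, then 5.87 CPM, with 1.46, 1.86, 9.09 and 6.78 CPM in leaf. Replicate 4 thus lay within the leaf values, and the gene was still called higher in trichome (log2 2.67 ± 0.70, adjusted p = 0.00681). CZFP1 (Solyc04g077980), a C2H2 zinc finger protein, had 15.7, 26.0 and 51.9 CPM, then 4.15 CPM, and in leaf 35.9, 144.2, 52.1 and 67.5 CPM. Its trichome replicate 3 overlapped the leaf values, and the difference between tissues (log2 -1.43 ± 0.62, edgeR adjusted p = 0.063) passed the threshold with the collection as a block (-1.66, adjusted p = 0.0422).

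Genes of hormone response and defence were also among the members. JAZ2 (Solyc12g009220), a repressor of the jasmonate response, had 23.76, 18.2 and 53.4 CPM, then 5.14 CPM in trichome replicate 4. Its leaf libraries had 7.34, 5.68, 21.7 and 36.2 CPM, so collection 4 gave the highest leaf value and the lowest trichome value. The tissue difference was 0.55 ± 0.73 (adjusted p = 0.516) with all libraries and 1.60 (adjusted p = 0.0389) without collection 4. The other 5 named jasmonate and wound genes in the range did not share the low value. Outside the range, loxD was also lowest in replicate 4 (2.39, 7.40 and 11.7 CPM, then 2.06). Solyc03g020040, on this list under a name that could not be checked, was kept out by the upper limit (1318, 938.2 and 977.2 CPM, then 165.7). Over all 10014 genes in the range, 1749 had their highest trichome value in replicate 4 on gene totals. Of these other 5 jasmonate and wound genes, 4 did so. Among these were AOS2, an allene oxide synthase of jasmonate synthesis (100.8, 111.2 and 116.8 CPM, then 163.8), AOC, the allene oxide cyclase (58.5, 78.3 and 91.3 CPM, then 106.8), and the arginase gene ARG2 (6.55, 6.63 and 12.3 CPM, then 17.9).

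GH3.2 (Solyc01g107390), of the family that joins amino acids to hormones such as auxin, had 61.5, 37.2 and 85.7 CPM, then 11.7 CPM, against 0.687 to 3.69 CPM in leaf. All trichome libraries were above all leaf libraries (log2 5.01 ± 0.65, SE; edgeR adjusted p = 0.000101). CHI3 (Solyc02g082920), a chitinase, had 28.2, 35.3 and 85.3 CPM, then 7.74 CPM, and 3.23, 26.4, 16.6 and 31.5 CPM in leaf. Replicate 4 was within the leaf range, and the tissue difference was 1.13 ± 0.72 (adjusted p = 0.187), or 1.91 (adjusted p = 0.0334) without collection 4. The other pathogenesis-related gene in the range, PR-P2, had 38.9, 76.3 and 131.5 CPM, then 17.0 CPM, and kept above its leaf values (1.35 to 3.78 CPM) in every trichome library. IPMS2 (Solyc08g014130), an isopropylmalate synthase of leucine synthesis, had 39.2, 53.9 and 53.0 CPM, then 10.9 CPM, with 32.2, 53.0, 31.8 and 20.4 CPM in leaf. The ID listed as IPMS3 (Solyc08g014230), a neighbouring enzyme of the same kind that supplies acylsugar chains, had 26.9, 23.1 and 20.9 CPM, then 38.5 CPM, the opposite order.

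No member came from the terpene, flavonoid, photosynthesis, cuticle or heat shock lists. These lists had only 4, 1, 3, 3 and 6 named genes in the range. With 1.43% of all genes in the range set apart, the lack of a member says little about them. Among the acylsugar genes no checked name was a member, but Solyc07g043630 and Solyc07g043680, on that list under names that could not be checked, were. The 4 terpene genes in the range all had log2 ratios above 0 in replicate 4 on either scaling (median 0.21 on gene totals and 0.58 with TMM). Of 6 heat shock genes in the range 3 were lowest in replicate 4 on gene totals and 2 with TMM. For 3 cuticle genes these counts were 3 and 1. Over all 10014 genes in the range they were 5713 (57.1%) and 2715, so counts over so few genes say little about these lists. The acylsugar acyltransferase ASAT3, a marker of other kinds of hair, had 96.6, 94.3 and 65.5 CPM, then 42.0 CPM.

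**Figure D3:**
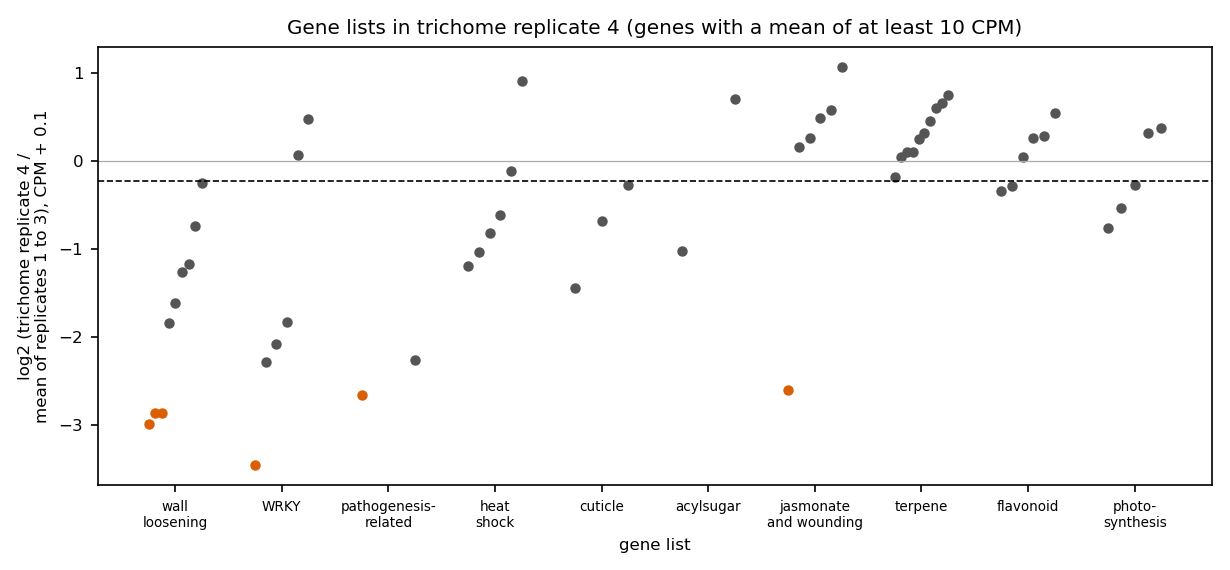
Log2 ratio of trichome replicate 4 to the mean of replicates 1 to 3 (CPM + 0.1, gene totals) for the named genes with a mean of at least 10 CPM in trichome, by gene list, the abundant ones over 500 CPM included; orange points are among the 143 genes, and the dashed line is the median of -0.23 over all 10014 genes in the range. Wall-loosening genes lie below the line, WRKY genes fall into low and high ones, and most jasmonate and terpene genes lie above it.

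The most abundant lower genes had no name and were mostly trichome genes. Solyc12g039070 had 711.1, 338.8 and 452.9 CPM in replicates 1 to 3, 106.1 CPM in replicate 4 and 12.3 to 33.0 CPM in leaf. Solyc03g034390 had 535.6, 228.0 and 244.3 CPM, then 69.1 CPM, with 7.60, 14.7, 7.11 and 1.09 CPM in leaf. Solyc08g067940 had 480.0, 197.0 and 244.8 CPM, then 62.2 CPM, and in leaf 42.9, 37.4, 35.3 and 11.2 CPM. In Solyc01g007080 the values were 323.5, 137.4 and 257.7 CPM, then 42.5 CPM, with 6.71, 13.2, 8.61 and 1.83 CPM in leaf. In all 4 genes replicate 1 was the highest trichome library and leaf replicate 4 the lowest leaf library, and the differences between tissues were 4.50, 5.38, 3.14 and 4.86 on the log2 scale (SE 0.51 to 0.79; edgeR adjusted p = 4.6e-05 to 0.000787). Solyc01g008620, on the pathogenesis-related list under a name that failed the position check and so left unnamed, went from 48.5, 85.3 and 105.1 CPM to 7.39 CPM, with 0.625 to 3.51 CPM in leaf. At the other end, Solyc11g013810 had the highest leaf level of the set, with 1903, 1315, 1027 and 1278 CPM in leaf, 53.0, 30.9 and 75.1 CPM in trichome replicates 1 to 3 and 9.34 CPM in replicate 4.

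Some members were neighbours in the ID order. Within 5 places of each other lay 15 of the genes, in 7 runs, all lower. The longest was Solyc07g043630, Solyc07g043660 and Solyc07g043680. Their trichome replicates 1 to 3 had 10.8 to 14.4, 73.6 to 91.1 and 12.6 to 15.2 CPM, and replicate 4 had 2.67, 21.5 and 3.93 CPM. All 3 were called higher in trichome than in leaf (log2 2.98, 4.14 and 3.57; edgeR adjusted p = 0.00664, 0.000874 and 0.00179), and in all 3 leaf replicate 2 was the highest and leaf replicate 4 the lowest leaf library, for instance 12.2 against 0.658 CPM for Solyc07g043660. The pair Solyc03g034380 and Solyc03g034390 had 88.5 to 103.2 and 228.0 to 535.6 CPM in replicates 1 to 3, and 19.7 and 69.1 CPM in replicate 4. Solyc09g072730 and Solyc09g072770 flanked Solyc09g072750, which the upper limit had kept out. Reads not placed uniquely were left out, so near-identical copies among such neighbours could be counted too low, and their levels are uncertain.

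In leaf, the 139 lower genes ran from 0.526 to 1381 CPM (mean of 4 libraries), with a median of 15.3 CPM. The leaf mean was below the mean of trichome replicates 1 to 3 for 97 genes and above it for 42. Trichome replicate 4 was below every leaf library for 77 genes and above every leaf library for 32. For 41 genes trichome replicates 1 to 3 were all above the leaf mean and replicate 4 was below it, so that the direction between tissues changed with the library read.

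The test of trichome against leaf uses the trichome values by which the genes were chosen, so its calls describe where the genes lie between the tissues and are no independent evidence. Over all 8 libraries, 69 of the 143 genes were called higher in trichome, 25 lower and 49 in neither direction. Among all tested genes 33.9% were called higher and 38.5% lower, and among genes of the same range of trichome levels 51.5% and 20.7%, so the shares of 48.3% and 17.5% among the 143 were near those of their range. Without collection 4, 85 were called higher and 28 lower, where all tested genes had 33.5% and 38.1% and the range had 50.3% and 20.4%. The 85 held all of the 69, and the 28 held 24 of the 25.

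Of the 139 lower genes, 66 were called higher in trichome, with a median of 36.6 CPM over replicates 1 to 3, 8.08 CPM in replicate 4 and 4.56 CPM in leaf. The 25 called lower in trichome had medians of 22.5, 3.32 and 135.8 CPM, and for all 25 replicate 4 was below every leaf library. The 48 without a call had 27.3, 4.90 and 24.99 CPM, and for 41 of them replicate 4 was below every leaf library. Genes called in each direction and genes without a call were thus all among the 139.

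**Figure D4:**
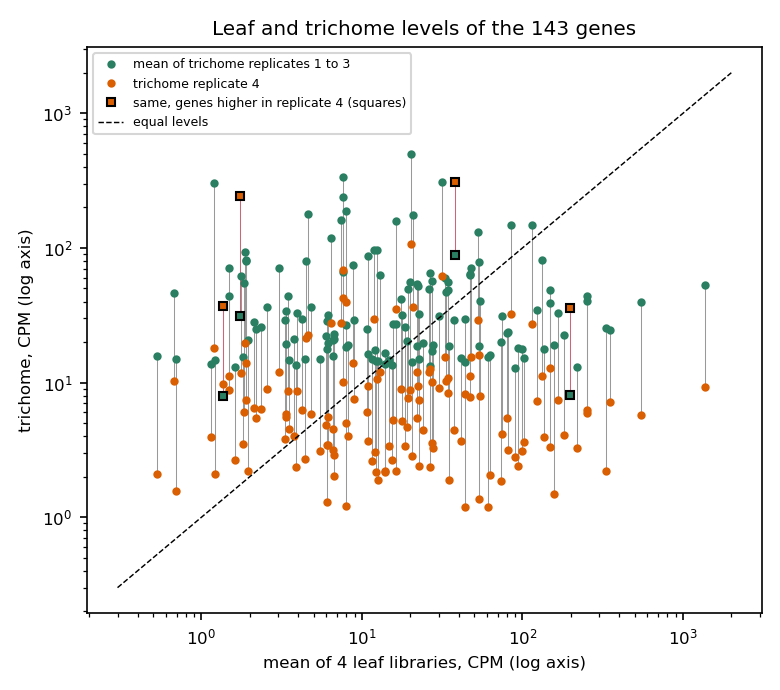
Trichome CPM against the mean CPM of the 4 leaf libraries for each of the 143 genes, on log axes; a vertical line joins the mean of trichome replicates 1 to 3 (green) to replicate 4 (orange), and squares mark the 4 higher genes. Leaf levels run from under 1 to over 1000 CPM, and 41 of the lines cross the dashed line of equal levels downwards with all 3 other libraries above the leaf mean.

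Leaf values of the same collection were not used in the choice. Leaf replicate 4 was set against leaf replicates 1 to 3 with edgeR's quasi-likelihood test over 21232 genes, with the lone library assumed to vary like the other 3. None of the 139 lower genes was called in either direction, and of the 4 higher genes Solyc03g096780 was called higher (log2 5.97 ± 0.44, SE; adjusted p = 0.0195); without leaf replicate 3 its adjusted p was 0.0785. Over all tested genes 47 were called higher (0.221%) and 0 lower (0.0%), and in the range 14 higher (0.14%), so that with a lone library few genes of any kind were called and the lack of a call says little about a gene. At an unadjusted p under 0.05, 29 of the 139 genes (20.9%) were lower in leaf replicate 4 and 12 (8.63%) higher. Over all tested genes 1020 (4.80%) were lower and 1132 (5.33%) higher, and among genes in the range 389 (3.90%) and 357 (3.58%). DESeq2, run as an alternative, called 5 of the 143 higher and 13 lower, beside 310 higher and 261 lower over all genes.

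The median log2 difference of leaf replicate 4 in that edgeR fit, with TMM, was -0.30 over the 139 genes and -0.0050 over all genes in the range. The counts that follow are on gene totals and were not made with TMM. TMM factors over all 8 libraries were 0.936 for leaf replicate 4 and 1.03 to 1.24 for the other leaf libraries, so these counts could change with scaling. Leaf replicate 4 was the lowest leaf library for 73 of the 139 (52.5%), against 54.8% in the range, and the highest for 19 (13.7%), against 9.37%. Among the 66 genes called higher in trichome it was the lowest for 44 (66.7%, against 60.6% of genes so called in the range) and the highest for 6 (9.09%, against 6.29%). Among the 25 called lower in trichome it was the lowest for 5 (20%, against 40.9%) and the highest for 4 (16%, against 14.0%). The smallest p-values among the lower genes went in both directions. Solyc07g008240 had 0.677, 0.737 and 0.885 CPM in leaf replicates 1 to 3 and 5.01 CPM in leaf replicate 4 (log2 2.98 ± 0.35, SE; edgeR adjusted p = 0.0778), while its trichome libraries went from 20.1, 12.9 and 13.6 to 3.51 CPM. Solyc06g019170 had 23.4, 14.7 and 10.99 CPM and then 116.8 CPM in leaf (log2 3.10 ± 0.46, adjusted p = 0.139), against 16.3, 11.6 and 17.58, then 3.66 CPM in trichome. Collection 4 thus gave these 2 genes their highest leaf and lowest trichome value. Solyc03g034390 and Solyc01g007080 were lower in replicate 4 of both tissues, with leaf differences of -2.85 ± 0.52 (adjusted p = 0.204) and -2.06 ± 0.41 (adjusted p = 0.235), which did not pass the threshold.

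**Figure D5:**
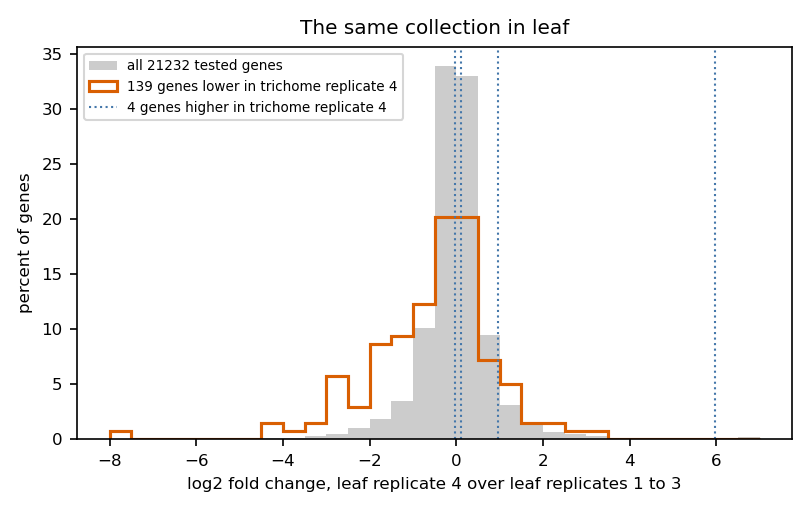
Share of genes, in percent, by log2 fold change of leaf replicate 4 over leaf replicates 1 to 3, for all 21232 tested genes (grey) and for the 139 genes lower in trichome replicate 4 (orange line); dotted lines mark the 4 higher genes. The 139 genes spread more widely than all genes, with more of them below 0, a median of -0.30, and none called; the dotted line at 5.97 is Solyc03g096780.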

How the data were processed

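Messenger RNA was sequenced from 4 trichome and 4 leaf libraries. The deposited files hold raw counts of reads per gene, 1 file per library, made with HTSeq after Trimmomatic, TopHat2 and SAMtools, per the submitters' processing notes. The sources used here give no tool version, genome build, annotation or strand setting, so reads of overlapping or antisense genes cannot be told apart. HTSeq's summary lines (13.3% ± 0.829 of lines in leaf and 21.1% ± 2.61 in trichome, SD, n = 4) were left out.

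CPM was computed on gene totals. The genes, lists and tests were chosen with earlier results of these data known, and the wall-loosening and WRKY lists after values were seen. Of 34725 IDs, 0 matched the reference table (RefSeq assembly SLM_r2.1) directly. Names are published assignments: of 179 listed IDs 177 were in the files, 112 had a symbol on the same chromosome, and 108 lay within 5 percentage points of its relative position. A name so placed may still belong to a neighbour. One named member is not reported here. Named are the 8 largest ratios and 4 further most abundant genes per direction, the 4 smallest p-values in leaf, the 2 longest runs, list members and the 3 genes on each side of the threshold; others are named as chosen afterwards or for the group they belong to. Solyc11g013810 was chosen after its values were seen.

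Tests on the counts used edgeR 4.0.16 (R 4.3.3, TMM, filterByExpr, quasi-likelihood, Benjamini-Hochberg over all tested genes, threshold 0.05), after a run on simulated counts. SE is approximate, from the fold change and the F statistic. DESeq2 1.42.0, other factors, no filter, left-out libraries and the collection as a block were alternatives. Sampling numbers in the labels mark shared collections, so they were taken to pair the libraries. Deviations of same-numbered libraries correlated at 0.068, 0.138, 0.224 and 0.19 over 18864 genes. Leaf replicate 1 correlated more with trichome replicate 4 (0.159), and leaf replicate 2 more with trichome replicate 1 (0.146). The pairing thus rests on the labels. The collections are independent per the design text. Floors reflect counting error alone, because PCR reads that carry no molecular identifier cannot stand for separate molecules.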

Additional observations from a re-analysis of the deposited data

Results flagged for a closer look

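Each group of 4 libraries was screened for a value whose gap to the nearest other library, divided by the whole range, passed Dixon's 95% critical value: the leaf levels of the named genes and measures of each library, 50 groups in all. Chance passes about 1 in 20 groups, and 7 passed, but that rate does not hold here: 3 of the 7 are leaf levels of genes named for a small p in leaf replicate 4. The trichome levels of the genes were not screened, since they had been chosen for a value that stands apart.

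In leaf, Solyc03g096780 had a gap of 0.99 of its range (751.7 CPM in replicate 4 against 11.2 to 18.8), Solyc07g008240 of 0.952 (5.01 against 0.677 to 0.885 CPM) and Solyc06g019170 of 0.883 (116.8 against 10.99 to 23.4 CPM). Solyc12g088390 had its far leaf value in replicate 2, with a gap of 0.917 (14.5 against 2.66 to 3.64 CPM). Among library measures, the number of genes with a count in trichome had a gap of 0.911 (20400 in replicate 4 against 22154 to 22325), and the share of lines not placed uniquely in leaf a gap of 0.851 (4.44% in replicate 4 against 2.87% to 3.10%). The gene total in trichome had a gap of 0.855, with 24596280 counts in replicate 2 against 26236865 to 26514416.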

How the results depend on the processing

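The number of genes set apart moved with every limit of the rule but the upper one (144 lower and 4 higher without it). A ratio of 2 gave 22 higher and 537 lower genes and a ratio of 4 gave 1 and 55. TMM effective sizes gave 13 and 67, a mean of at least 5 CPM gave 4 and 248, and a mean of at least 20 CPM gave 2 and 82.

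Calls between tissues stayed within 1.5 times of 69 higher and 25 lower. They were 66 and 29 with RLE factors, 57 and 26 with library size alone, 69 and 25 without a filter, 70 and 31 with DESeq2, 68 and 29 with the replicate block, 57 to 82 and 23 to 29 with 1 library left out, and 85 and 28 without collection 4. Library size alone put the median log2 of all genes at -0.31, against -0.09 with TMM.

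In leaf, 1 gene was called higher and 0 lower. DESeq2 gave 5 and 13, the spread of all 8 libraries gave 3 and 0, and leaving out 1 library gave 0 to 2 and 0. The cause of these moves was not tested.

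Signs changed in 8 fits of single genes, none of which gave a call. Between tissues these were Solyc06g019170 without collection 4 (0.044), EXPA4 (Solyc09g010860) with the replicate block (-0.030), and, with 1 library left out, EXPA4 (-0.045 to 0.50), JAZ2 (Solyc12g009220; -0.054 to 1.30) and Solyc03g096780 (-4.71 to 0.45, the last without leaf replicate 4). In leaf they were Solyc00g068980 with 1 library left out (-0.37 to 0.87), and Solyc10g008660 with library size alone (-0.14) and without replicate 2 (-0.14). Apart from CZFP1 and CEL8, the block changed no call of a named gene.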
